A study of Mus musculus with 8 samples.

Results

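The chemokine ligands and their receptors were followed in the epididymal white fat of mice. Rows were taken by gene name: Ccl, Cxcl, Ccr and Cxcr genes followed by a number, together with Cx3cl1, Cx3cr1, Xcl1, Xcr1 and the atypical receptors Ackr1 to Ackr4. This gave 61 of the 28295 rows of the expression table, under 58 names. Ccl21a, Ccl21c and Ccl27a each stood on 2 rows, 4 rows lay on scaffolds not placed on a chromosome, and Ccl19-ps3 is a pseudogene. The name rule itself uses no measured value, but it was set with earlier results of these data known.

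Chemokines are small secreted proteins that attract leukocytes along a gradient. They bind G protein-coupled receptors on the leukocytes, and proteoglycans of the vessel wall and matrix hold them in place. In obese fat they are known for drawing monocytes, which become macrophages, with smaller numbers of T cells and dendritic cells. The atypical receptors bind chemokines without G protein signalling, and scavenge or transport them.

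All 8 libraries came from male mice given a Western diet for 8 weeks and fasted for 6 h, 4 libraries in each group. The WT mice carried both copies of Cul3 flanked by loxP sites and had no Cre. The KO mice carried the same floxed alleles and also a Cre driven by the Adipoq promoter, which is active in adipocytes, so that other cells of the tissue are not targeted. Cul3 encodes a scaffold on which many ubiquitin ligases assemble, and the comparison asks how fat differs when adipocytes lose it. The labels do not tie a library to a named animal, and p-values measure the spread between these libraries.

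Cul3 was not lower in the KO group, with WT at 11.2 ± 1.13 FPKM and KO at 12 ± 1.28 FPKM (SD, n = 4 each). On the log2 scale the difference was 0.09 ± 0.10 (limma adjusted p = 0.520, exact two-sided permutation p = 0.429). A value for the whole gene does not separate deleted exons from the rest, so the group is called KO-labelled and every direction rests on the labels. Per library, 15.1 to 19.7 M reads (M, 1000000) fell in listed genes, as recovered from FPKM, the fragments per kilobase of a gene for each 1000000 that mapped. In WT those reads were 74.0% to 78.6% of the FPKM denominator, and in KO-labelled fat 62.5% to 66.0%. The 6 adipocyte markers summed to 3734 to 5032 FPKM in WT and 1480 to 2034 FPKM in KO-labelled libraries, and all 6 were called lower. Liver markers summed to 122 FPKM in WT1 and 453 FPKM in WT2 and to 4.4 to 33.0 FPKM in the other 6. Epididymis markers summed to 269.9 FPKM in KO1 and 67.7 FPKM in WT2 and to at most 10.6 FPKM elsewhere. WT4 had the highest WT sum of the 8 macrophage markers, 667 FPKM against 253 to 286 FPKM in WT1 to WT3, and KO4 the lowest KO-labelled sum, 402 FPKM against 620.0 to 930.3 FPKM in KO1 to KO3.

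Of the 61 rows, 40 had a mean of at least 0.5 FPKM over the 8 libraries and were tested among the 14400 such genes. Of these 40, 15 were called higher in KO-labelled fat and 0 lower, at a limma adjusted p under 0.05 over all 14400 genes. Of all genes tested 30.4% were called, 11.7% higher and 18.6% lower, so the 37.5% of tested members called higher stands beside 11.7%. The median log2 fold change was 0.54 over the 40 and -0.02 over all tested genes. Every KO-labelled library lay above every WT library in 13 of the 40, against 12.1% of all tested genes, and below in 0 of the 40, against 19.1%. The filter admits 5 of the 40 through the KO-labelled group, with a WT mean under 0.5 FPKM. Of those, 3 are among the 15: Ccl4, Cxcr6 and Xcr1. Without WT1 and WT2 together, 8 members were called higher (5.01% of all tested genes). Leaving out WT4 gave 19 (13.5% of all tested genes), and leaving out WT1 gave 10 (7.56%). Scaling each library to a sum of 1000000 gave 20 (29.3%), scaling to reads in listed genes 19 (29.1%), and a block for replicate number, though the numbers do not pair the libraries, 11 (7.73%).

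**Figure D1:**
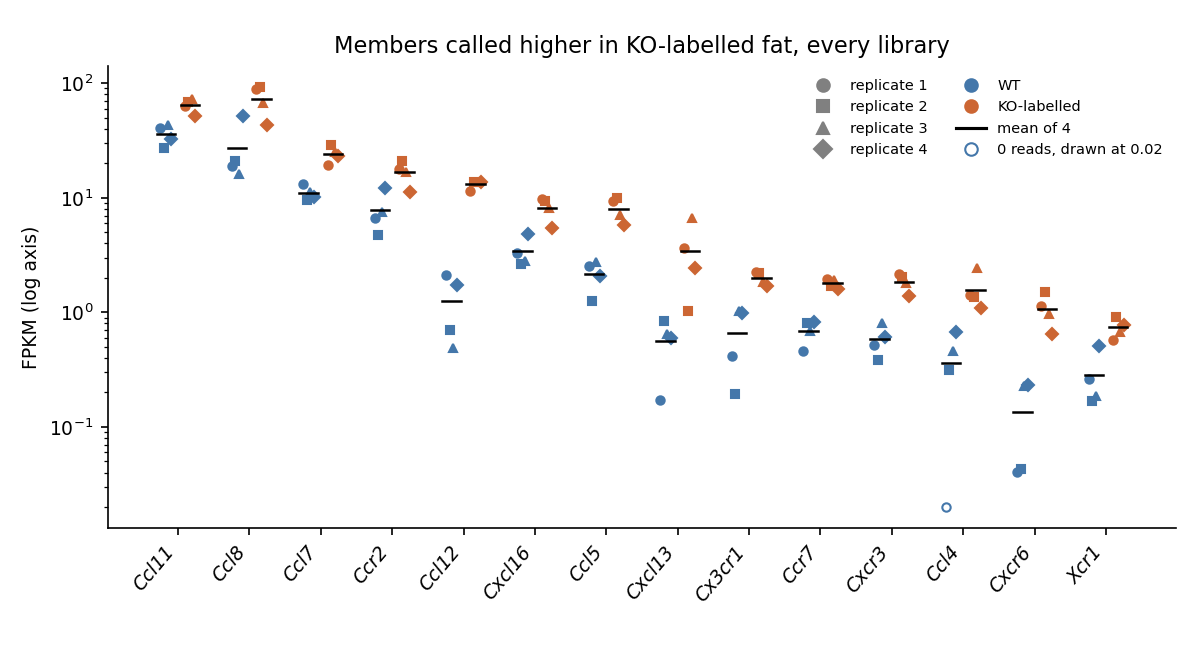
Members called higher (14 of the 15 drawn), one point per library, on a log axis of FPKM: WT in blue, KO-labelled in orange, shapes for replicates 1 to 4, black bars for the mean of 4. In 12 of the 14 the colours do not overlap, while in Ccl8 and Ccr2 the WT4 diamond lies among the orange points.

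Of the 4 ligands of the group around CCR2, the receptor of inflammatory monocytes, Ccl12, Ccl8 and Ccl7 rose and Ccl2 was not called. Ccl12 (ENSMUSG00000035352, chromosome 11, 82101845 to 82103400 on mm10), a monocyte attractant of rodents, stood at 2.12, 0.700, 0.487 and 1.74 FPKM in WT1 to WT4 and at 11.4, 13.8, 13.6 and 13.8 FPKM in KO1 to KO4. The lowest KO-labelled library was thus far above the highest WT library. The mean went from 1.26 ± 0.792 to 13.1 ± 1.18 FPKM, a ratio of 10.4, with a log2 fold change of 3.07 ± 0.30 (limma adjusted p = 0.000242).

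Ccl7 (ENSMUSG00000035373, chromosome 11, 82045712 to 82047525), which mobilises monocytes through CCR2, read 13.1, 9.64, 11.3 and 10.3 FPKM in WT and 19.2, 28.8, 25.2 and 23.3 FPKM in KO-labelled libraries. The groups did not overlap, and Ccl7 rose by 1.08 ± 0.14 on the log2 scale (limma adjusted p = 0.000774). Ccl8 (ENSMUSG00000009185, chromosome 11, 82115185 to 82116799), made largely by tissue macrophages and in mice also a ligand of CCR8, read 19.0, 21.2, 16.2 and 51.7 FPKM in WT and 88.7, 92.7, 67.1 and 43.1 FPKM in KO-labelled libraries. WT4 lay above KO4, and the other WT libraries lay below every KO-labelled one. The log2 fold change of Ccl8 was 1.51 ± 0.38 (limma adjusted p = 0.0178). The call was lost without WT1 (adjusted p = 0.0531) and without KO2 (0.0502), and without WT1 and WT2 together the fold change was 1.25 (0.155).

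Ccl2 (MCP-1, ENSMUSG00000035385, chromosome 11, 82035571 to 82037453), the best studied CCR2 ligand of obese fat, was not called. Its values were 11.7, 6.79, 8.28 and 14.4 FPKM in WT and 12.2, 15.2, 13.6 and 8.80 FPKM in KO-labelled libraries. The groups overlapped over most of their range, with a log2 fold change of 0.29 ± 0.24 (limma adjusted p = 0.390). Over the 21 other settings of the analysis it ran from 0.12 to 0.58, with no adjusted p under 0.129.

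The bases just before the transcription start of Ccl12 and Ccl8 are shown beside those of Cxcl1, Cxcl2 and Cxcl10, because the first pair rose and the others, not called or too low to test, hold motifs named for the signals that induce chemokines. Sequences are RefSeq, build GRCm38.p6, 5′ to 3′ on the gene's strand. Capitals mark a match to the NF-kB motif or, first in Cxcl10 and on the opposite strand, to the ISRE (interferon-stimulated response element), each with any base allowed at the 2 middle positions. Ccl12 is chr11:82101725-82101844 (plus strand), Ccl8 chr11:82115065-82115184 (plus), Cxcl1 chr5:90891125-90891244 (plus) and Cxcl2 chr5:90903779-90903898 (plus), each the 120 bases before the start. Cxcl10 is chr5:92349030-92349109 (minus), a stretch of 80 bases that begins 220 bases before the start.
Ccl12: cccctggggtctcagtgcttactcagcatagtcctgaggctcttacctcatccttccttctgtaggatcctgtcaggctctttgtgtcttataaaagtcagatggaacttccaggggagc
Ccl8: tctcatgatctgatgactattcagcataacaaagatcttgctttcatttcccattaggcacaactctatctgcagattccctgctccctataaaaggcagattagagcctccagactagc
Cxcl1: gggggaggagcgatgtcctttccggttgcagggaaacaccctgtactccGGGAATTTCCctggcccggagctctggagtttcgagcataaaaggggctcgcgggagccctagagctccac
Cxcl2: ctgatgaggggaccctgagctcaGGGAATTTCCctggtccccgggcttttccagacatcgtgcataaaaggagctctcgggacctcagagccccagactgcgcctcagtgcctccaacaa
Cxcl10: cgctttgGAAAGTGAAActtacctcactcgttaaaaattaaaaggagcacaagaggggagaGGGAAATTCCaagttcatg

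The search covered 250 bases before to 50 bases after each start, on both strands, and also used TTCNNNGAA (GAS, the interferon gamma-activated site). Of the 41 members with a RefSeq window, 5 held the NF-kB motif (Ccl1, Ccr3, Cxcl1, Cxcl10 and Cxcl2), against 1.47% of all 32851 windows. The ISRE was in 3 (Ccl19, Cxcl10 and Cxcl14), against 3.44%, and GAS letters in 4 (Ccl17, Ccr1l1, Ccr6 and Cxcl14), against 8.30%. Any of the 3 motifs was in 10 of the 41 members and in 12.57% of all windows. Members were counted by name, with a match in any of their windows, and the percentages are of windows, so the units differ. Of the 15 members called higher, 8 had a window and 0 of these held any of the 3, which says only that these letters are not in those windows.

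Another 3 inflammatory CC ligands rose. Ccl5 (RANTES, ENSMUSG00000035042, chromosome 11, 83525778 to 83530518), a T cell and macrophage product that attracts T cells and monocytes, read 2.53, 1.26, 2.73 and 2.08 FPKM in WT and 9.40, 9.90, 7.10 and 5.81 FPKM in KO-labelled libraries. The groups were apart, with a rise of 1.70 ± 0.22 on the log2 scale (limma adjusted p = 0.000990). Ccl11 (eotaxin-1, ENSMUSG00000020676, chromosome 11, 82057823 to 82062955), an eosinophil attractant made by stromal cells, read 40.4, 27.5, 42.9 and 32.8 FPKM in WT and 62.9, 68.8, 73.2 and 51.4 FPKM in KO-labelled libraries. All KO-labelled values were above all WT values, and Ccl11 rose by 0.84 ± 0.16 (limma adjusted p = 0.00609). The 3 eosinophil markers in the table summed to 0.187 to 0.581 FPKM in WT and 0.161 to 0.493 FPKM in KO-labelled libraries, and none reached the level tested.

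Ccl4 (MIP-1 beta, ENSMUSG00000018930, chromosome 11, 83662584 to 83664683), a product of activated macrophages and T cells, was near the limit of detection in WT. It read 0, 0.316, 0.463 and 0.678 FPKM there and 1.40, 1.36, 2.44 and 1.10 FPKM in KO-labelled libraries, from 0 to 39 recovered reads. The libraries did not overlap, with a log2 fold change of 1.29 ± 0.29 (limma adjusted p = 0.0107). Without WT1 and WT2 together the call was lost (0.92, adjusted p = 0.0647). Its neighbour Ccl3 (MIP-1 alpha) was not called (0.44 ± 0.37, adjusted p = 0.385). WT4, at 2.34 FPKM, exceeded all KO-labelled libraries (0.844 to 1.52 FPKM), and WT1 to WT3 lay below them all. Without WT4 the log2 fold change of Ccl3 was 0.83 (limma adjusted p = 0.0138).

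Ccl6 and Ccl9, both ligands of CCR1 that macrophages make in quantity, had means among the highest of the set and were not called. Ccl6 (ENSMUSG00000018927, chromosome 11, 83587882 to 83593087) read 45.8, 53.5, 47.2 and 107 FPKM in WT and 114, 102, 79.3 and 47.2 FPKM in KO-labelled libraries (log2 fold change 0.45 ± 0.34, limma adjusted p = 0.345). Ccl9 (ENSMUSG00000019122, chromosome 11, 83572919 to 83578636) read 26.8, 23.6, 23.4 and 70.8 FPKM in WT and 61.5, 62.1, 60.9 and 37.3 FPKM in KO-labelled libraries (0.75 ± 0.36, adjusted p = 0.141). In both genes WT4 was the outlying WT library and KO4 the lowest KO-labelled one. Without WT4, Ccl9 was called (1.13, limma adjusted p = 0.00361) and Ccl6 was not (0.73, adjusted p = 0.0803). Over the 21 other settings Ccl9 stayed uncalled in 19, and its log2 fold change ran from 0.41 to 1.13 (limma adjusted p up to 0.585).

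The other inflammatory CC ligands tested were not called. Ccl17 and Ccl22, the CCR4 ligands made by dendritic cells and macrophages, had log2 fold changes of 0.70 ± 0.26 (limma adjusted p = 0.0706) and 0.53 ± 0.22 (0.0967). Every KO-labelled library exceeded every WT library in Ccl22 (0.941 to 1.15 against 0.253 to 0.927 FPKM). Both were called without WT4, at 0.84 and 0.68. Ccl24 (eotaxin-2), a product of alternatively activated macrophages, was at 2.48 ± 0.822 FPKM in WT and 2.78 ± 0.870 FPKM in KO-labelled fat (0.14 ± 0.25, adjusted p = 0.696). Ccl1 had 0 reads in every WT library and 1 to 11 in the KO-labelled libraries, and Ccl26 had 2 reads in all.

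**Figure D2:**
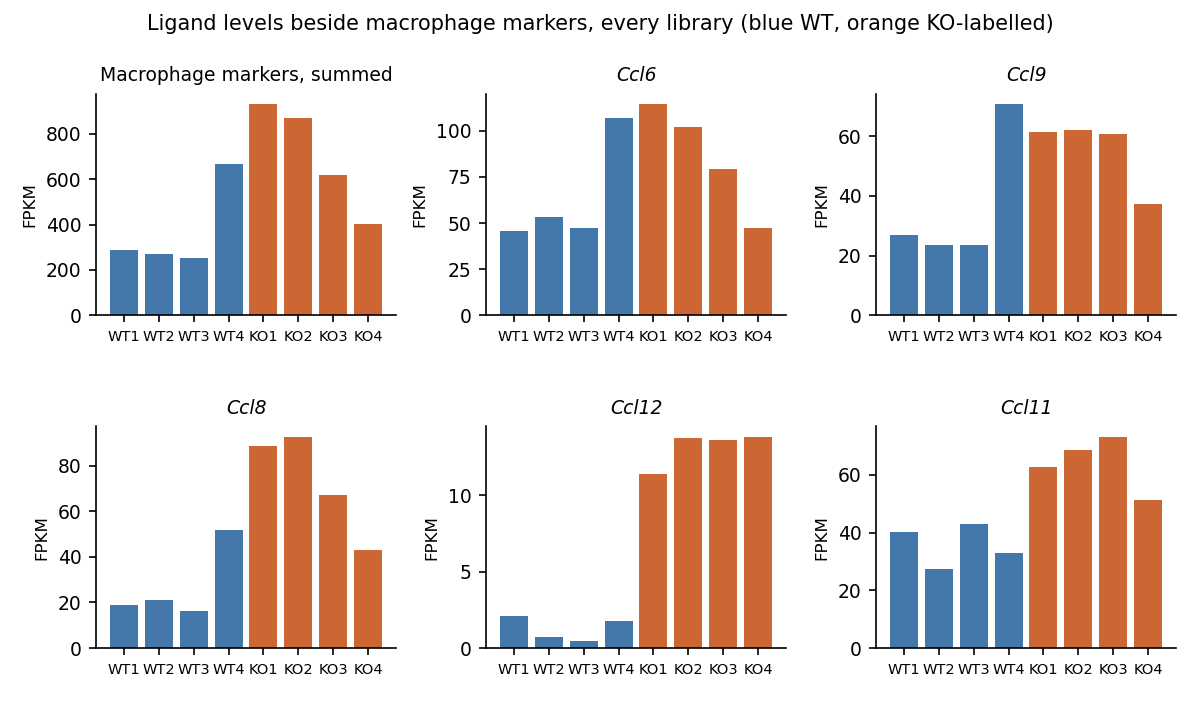
FPKM in each library for the sum of 8 macrophage markers and for 5 ligands, WT in blue and KO-labelled in orange. WT4 stands above WT1 to WT3 in the marker sum, Ccl6, Ccl9 and Ccl8, and KO4 is the lowest KO-labelled library there, while Ccl12 and Ccl11 keep the groups apart.

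Homeostatic CC ligands, which position lymphocytes and dendritic cells in lymphoid organs and epithelia, showed no call. Of their 10 rows, 4 were tested, too few to be set against the 30.4% of all tested genes called. Ccl27a (ENSMUSG00000073888) stood at 1.61 ± 0.409 FPKM in WT and 1.28 ± 0.321 FPKM in KO-labelled fat (log2 fold change -0.25 ± 0.18, limma adjusted p = 0.335), and Ccl25, a thymus and gut ligand, at 0.561 ± 0.136 and 0.615 ± 0.0659 FPKM (0.08 ± 0.14, 0.701). Ccl21a on a scaffold (ENSMUSG00000095320) ranged from 0 to 4.67 FPKM within WT alone. Ccl21c on a scaffold (ENSMUSG00000096873) had 48 reads in KO4 and 0 in the other 7 libraries, so its fitted fold change depends on the pseudocount. Ccl21 and Ccl27 exist as near-identical copies, and how reads were divided among them is uncertain. Ccl28, under the level tested, had 173 of its 344 reads in KO4.

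The CXC ligands fell into unlike groups. Of the neutrophil attractants Cxcl1, Cxcl2 and Cxcl5, which act through CXCR2, only Cxcl1 reached the level tested, at 0.928 ± 0.189 FPKM in WT and 0.963 ± 0.147 FPKM in KO-labelled fat (log2 fold change 0.04 ± 0.13, limma adjusted p = 0.850). Cxcl2 read 0.0606 to 0.688 FPKM in WT and 0.352 to 0.612 FPKM in KO-labelled libraries. Cxcl5 had at most 7 reads in a library. The receptor gene Cxcr2 had 0 reads in all WT libraries and at most 9 in a KO-labelled one. Neutrophil markers summed to 6.97 to 9.79 FPKM in WT and 13.3 to 20.5 FPKM in KO-labelled libraries. Of 3 tested, 2 were called higher (S100a8 and Csf3r), and Retnlg was at 0 in 5 of the 8 libraries. S100a8 made up most of the sum, with means of 6.25 FPKM in WT and 11.7 FPKM in KO-labelled fat. The third tested, S100a9, averaged 0.776 and 0.618 FPKM and was not called (log2 fold change -0.17).

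Cxcl9 and Cxcl10, the interferon-inducible ligands of CXCR3, lie side by side on chromosome 5 and had fold changes of opposite sign, neither called. Cxcl9 (ENSMUSG00000029417, chromosome 5, 92321347 to 92328079) read 8.17, 6.57, 10.2 and 6.85 FPKM in WT and 5.33, 5.97, 5.54 and 6.98 FPKM in KO-labelled libraries (log2 fold change -0.38 ± 0.14, limma adjusted p = 0.0756). Cxcl10 (ENSMUSG00000034855, chromosome 5, 92346638 to 92348889) read 1.81, 1.30, 2.03 and 1.64 FPKM in WT and 1.74, 2.97, 2.86 and 2.82 FPKM in KO-labelled libraries (0.48 ± 0.17, 0.0554). KO2 to KO4 were above all WT libraries in Cxcl10, and KO1 lay within them. Cxcl11, the third of these ligands, averaged 0.279 and 0.243 FPKM. Without KO1, Cxcl10 was called (0.63, limma adjusted p = 0.0102), and with array weights, which let libraries count unequally, both were (Cxcl9 -0.42, adjusted p = 0.0275, Cxcl10 0.52, adjusted p = 0.0215).

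Cxcl16 and Cxcl13 rose. Cxcl16 (ENSMUSG00000018920, chromosome 11, 70453983 to 70459984), a membrane-bound ligand of CXCR6 on macrophages and dendritic cells, read 3.32, 2.65, 2.83 and 4.79 FPKM in WT and 9.84, 9.29, 8.13 and 5.44 FPKM in KO-labelled libraries (1.15 ± 0.21, limma adjusted p = 0.00490). The libraries did not overlap, with WT4 and KO4 nearest to each other, and without WT1 and WT2 together the call was lost (1.02, limma adjusted p = 0.0615). Its gene overlaps Zmynd15 on the opposite strand, which rose from 0.754 to 1.83 FPKM. Whether counting used strand is not given here, so reads of the pair cannot be told apart. Cxcl13 (ENSMUSG00000023078, chromosome 5, 95956951 to 95961068), the B cell attractant that acts through CXCR5, read 0.171, 0.835, 0.645 and 0.601 FPKM in WT and 3.64, 1.03, 6.64 and 2.46 FPKM in KO-labelled libraries. The KO-labelled values spread over a wide range, all above WT, and Cxcl13 rose by 1.72 ± 0.43 (limma adjusted p = 0.0184). Without WT1 the adjusted p was 0.0537, and without WT1 and WT2 together 0.112. B cell markers summed to 1.32 to 2.59 FPKM in WT and 1.48 to 4.06 FPKM in KO-labelled libraries, with Cd79b the 1 tested gene and called higher, and Cxcr5 was at most 0.124 FPKM in any library.

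Cxcl12 (SDF-1, ENSMUSG00000061353, chromosome 6, 117168535 to 117181367), made by stromal cells and vessels and the retention signal of CXCR4, was among the highest members and was not called. It read 30.4, 27.6, 23.8 and 20.8 FPKM in WT and 22.3, 24.5, 16.7 and 14.3 FPKM in KO-labelled libraries (log2 fold change -0.41 ± 0.19, limma adjusted p = 0.129). The groups overlapped between 20.8 and 24.5 FPKM. Cx3cl1 (fractalkine), a ligand anchored on endothelium, was at 1.35 ± 0.279 and 2.04 ± 0.405 FPKM (0.45 ± 0.15, adjusted p = 0.0514), and Cxcl14 at 2.04 ± 0.704 and 3.62 ± 1.87 FPKM (0.65 ± 0.32, 0.148). The highest Cxcl14 value, 6.39 FPKM, was that of KO1. The 6 endothelial markers summed to 165 to 232 FPKM in WT and 112 to 133 FPKM in KO-labelled libraries, and all 6 were called lower. The 6 stromal progenitor markers summed to 205 to 402 and 194 to 233 FPKM, with 1 called lower and 0 higher. The part of either in the values of Cxcl12, Cx3cl1 and Ccl11 was not tested.

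**Figure D3:**
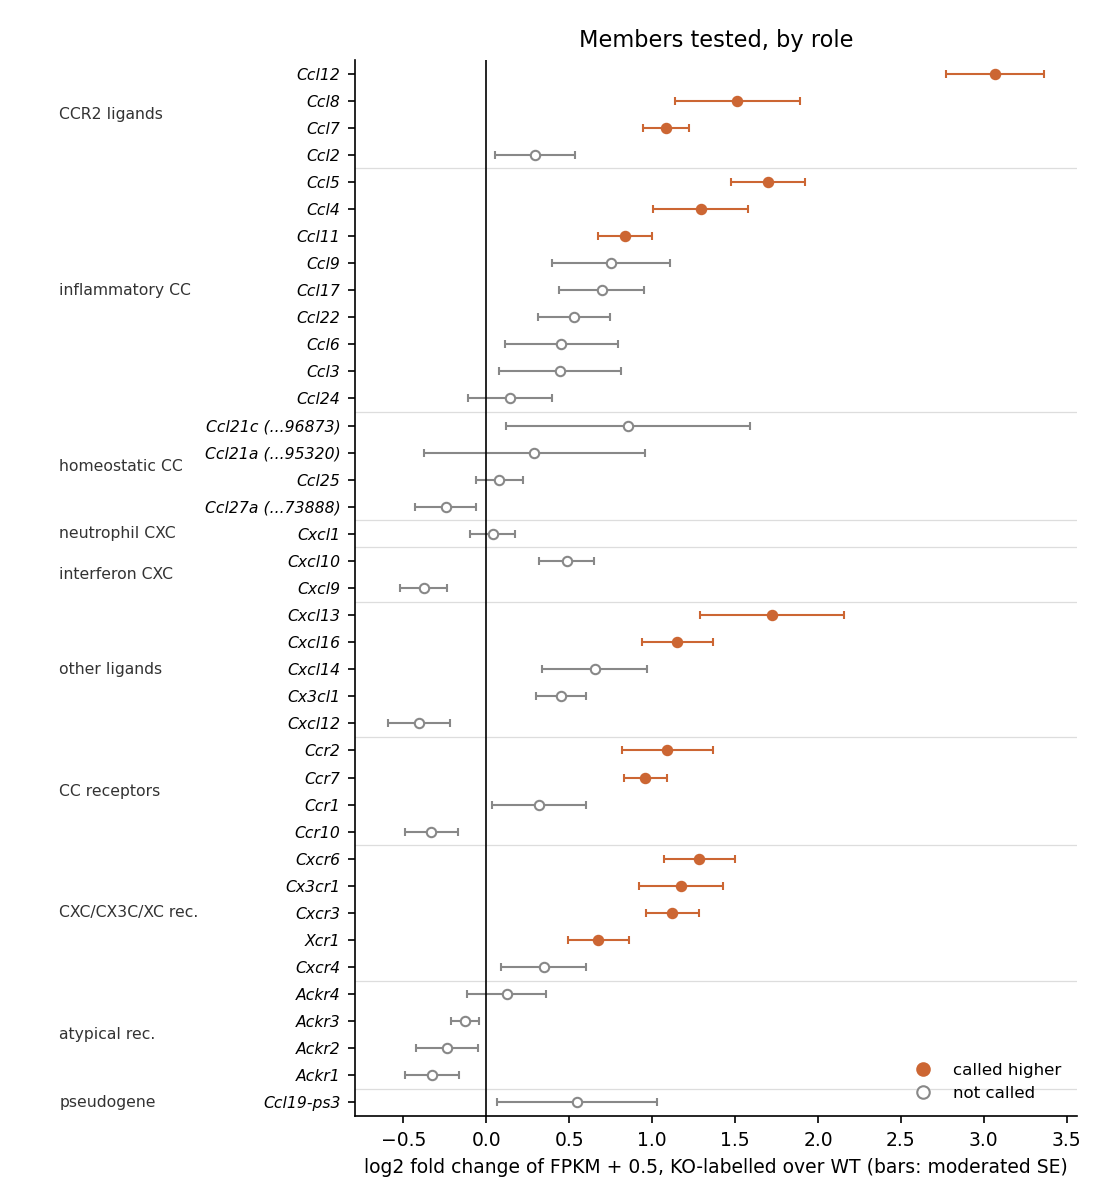
Log2 fold change of FPKM + 0.5, KO-labelled over WT, for 39 of the 40 tested members by role, with bars for the moderated SE of limma. Filled points were called higher: 8 of 25 tested ligands are filled, and 0 of the 4 atypical receptors. Of all tested genes, 11.7% were called higher.

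Of 18 signalling receptor genes, 10 were tested and 7 rose, beside 11.7% of all tested genes called higher. Ccr2 (ENSMUSG00000049103, chromosome 9, 124101950 to 124113557), the receptor of Ccl2, Ccl7 and Ccl12, read 6.66, 4.77, 7.58 and 12.2 FPKM in WT and 18.0, 20.8, 16.7 and 11.3 FPKM in KO-labelled libraries (log2 fold change 1.09 ± 0.27, limma adjusted p = 0.0176). WT4 was above KO4, and WT1 to WT3 were below all KO-labelled libraries. The Ccr2 call was lost without WT1 (limma adjusted p = 0.0508) and without WT1 and WT2 together (0.73, adjusted p = 0.136). Ccr1, the receptor of Ccl6 and Ccl9, was not called (0.32 ± 0.28, adjusted p = 0.424).

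Ccr7 (ENSMUSG00000037944, chromosome 11, 99144196 to 99155077), which guides dendritic cells and naive T cells to lymph nodes, read 0.456, 0.802, 0.684 and 0.823 FPKM in WT and 1.96, 1.71, 1.92 and 1.61 FPKM in KO-labelled libraries. The groups were well apart, with a log2 fold change of 0.96 ± 0.13 (limma adjusted p = 0.00108). Of its ligand genes, Ccl19 and the Ccl21a row on chromosome 4 (ENSMUSG00000094686) had 2 reads each over all 8 libraries, while the Ccl21a row on a scaffold (ENSMUSG00000095320) had 148 and was not called. Ccr10, a receptor of Ccl27 and Ccl28, was at 0.659 ± 0.169 and 0.418 ± 0.0905 FPKM (-0.33 ± 0.16, adjusted p = 0.146). Ccr3, Ccr4, Ccr6, Ccr8, Ccr9 and Ccr1l1 were under the level tested. Ccr3, the eosinophil receptor of Ccl11, read 0 to 0.398 FPKM in WT and 0.0864 to 0.200 FPKM in KO-labelled libraries.

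Of the CXC, CX3C and XC receptors, 4 of the 5 tested rose, beside 11.7% of all tested genes called higher. Cxcr3 (ENSMUSG00000050232, chromosome X, 101731535 to 101734269), carried by effector T cells and the receptor of Cxcl9 and Cxcl10, read 0.521, 0.386, 0.806 and 0.611 FPKM in WT and 2.18, 2.03, 1.79 and 1.40 FPKM in KO-labelled libraries (1.12 ± 0.16, limma adjusted p = 0.00128). Cxcr6 (ENSMUSG00000048521, chromosome 9, 123806475 to 123811760), the Cxcl16 receptor of tissue-resident T cells, read 0.0406, 0.0432, 0.226 and 0.232 FPKM in WT and 1.14, 1.5, 0.962 and 0.648 FPKM in KO-labelled libraries, from 2 to 71 reads (1.28 ± 0.21, 0.00289). Neither overlapped between groups. Cxcr6 lies within Fyco1 on the opposite strand, which was not called (7.43 and 8.79 FPKM, log2 fold change 0.22).

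Cx3cr1 (ENSMUSG00000052336, chromosome 9, 119901616 to 120069879), the fractalkine receptor of monocytes and macrophages, read 0.418, 0.195, 1.03 and 0.993 FPKM in WT and 2.25, 2.19, 1.83 and 1.69 FPKM in KO-labelled libraries (1.18 ± 0.25, limma adjusted p = 0.00958). Xcr1 (ENSMUSG00000060509, chromosome 9, 123852315 to 123862029), a marker of cross-presenting dendritic cells, read 0.264, 0.169, 0.186 and 0.511 FPKM in WT and 0.578, 0.916, 0.677 and 0.780 FPKM in KO-labelled libraries (0.67 ± 0.18, 0.0244). Both kept the groups apart. Xcr1 had the lowest mean tested, 0.510 FPKM, and the highest mean left out was 0.400 FPKM, that of its ligand Xcl1. The Xcr1 call was lost when WT1, WT2, WT3, KO2, KO3 or KO4 was left out (limma adjusted p 0.0525 to 0.0708), and without WT1 and WT2 together (0.147). The gene model of Cx3cr1 overlaps several genes. Those tested, Wdr48, Csrnp1 and Gorasp1, were not higher (log2 fold changes -0.01, -0.01 and -0.46, the last called lower). Ttc21a, Gm33858, Xirp1 and 1700019L13Rik were under the level tested and had higher means in KO-labelled fat, the largest being Ttc21a (0.0252 FPKM in WT, 0.214 FPKM in KO-labelled fat).

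Cxcr4, the Cxcl12 receptor of most leukocytes, was the highest signalling receptor after Ccr2 and was not called. It read 6.12, 5.61, 7.34 and 10.2 FPKM in WT and 12.5, 12.4, 7.26 and 6.32 FPKM in KO-labelled libraries, with the KO-labelled libraries divided into a high and a low pair (0.35 ± 0.26, limma adjusted p = 0.335). None of the 4 atypical receptors was called, too few to be set against the 30.4% of all tested genes called. Ackr3 (ENSMUSG00000044337, chromosome 1, 90203980 to 90216751), the Cxcl12 scavenger, was the highest of all receptor genes at 16.1, 17.5, 19.5 and 16.6 FPKM in WT and 14.5, 16.3, 17.1 and 15.7 FPKM in KO-labelled libraries. The groups overlapped, with a log2 fold change of -0.13 ± 0.08 (adjusted p = 0.288) whose sign turned under 3 of the 4 other scalings. Ackr1, the venule receptor that carries chemokines across the vessel wall, was at 4.08 ± 0.914 and 3.12 ± 0.480 FPKM (-0.33 ± 0.16, 0.153), the lymphatic scavenger Ackr2 at 1.32 ± 0.415 and 1.02 ± 0.216 FPKM (-0.24 ± 0.19, 0.360), and Ackr4 at 0.538 ± 0.214 and 0.646 ± 0.325 FPKM (0.12 ± 0.24, 0.725).

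Chemokine genes lie in clusters, taken here as members less than 300 kb apart. On chromosome 11 a cluster of 270.1 kb (82035571 to 82305690) holds Ccl2, Ccl7, Ccl11, Ccl12, Ccl8 and Ccl1, of which 5 were tested and 4 called. A second on chromosome 11, of 138.9 kb (83525778 to 83664683), holds Ccl5, Ccl9, Ccl6, Ccl3 and Ccl4, all tested and 2 called. On chromosome 9, Cxcr6, Xcr1 and Ccr2, all called, share a receptor cluster with Ccr1, which was not, and with Ccr9, Ccr1l1 and Ccr3, under the level tested. The Cxcl9, Cxcl10 and Cxcl11 cluster (44.1 kb) and that of Ccl22, Cx3cl1 and Ccl17 on chromosome 8 (66.4 kb) held 0 called members of 2 and 3 tested. These counts stand beside 11.7% of all tested genes called higher, and clusters with 2 or 3 tested members are too small to be set against that share. Members of a cluster are not independent replicates. Within the chromosome 11 clusters called and uncalled members stood next to each other.

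**Figure D4:**
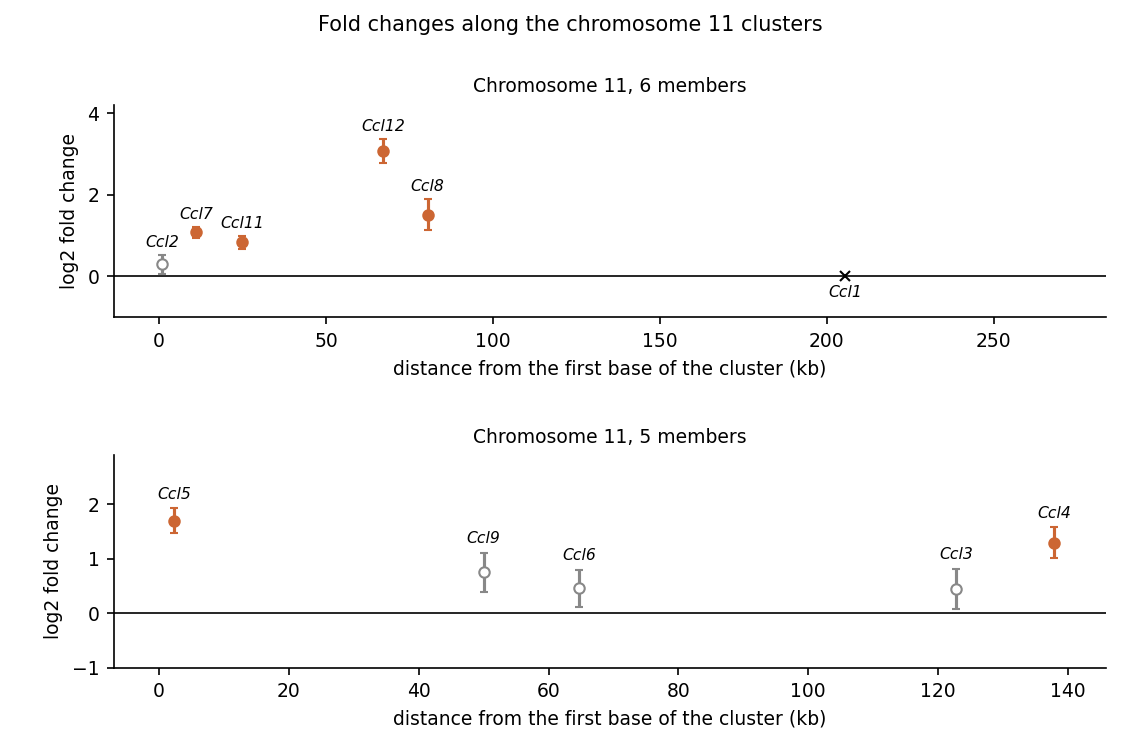
Log2 fold change (with the moderated SE) of members along the chromosome 11 clusters, against distance in kb from the cluster's first base, with each gene at its midpoint. Filled points were called, open points were not, and crosses mark members under the level tested, for which no fold change is drawn; Ccl2 stands low beside Ccl7, Ccl11, Ccl12 and Ccl8.

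In bulk tissue, fewer cells of a type and less RNA per cell cannot be told apart, nor can more of either. Of the 8 macrophage markers, all were tested and 4 called higher (Mertk, Fcgr1, Mrc1 and C1qb), with none at 0 in a library. Among the 40 tested members, WT4 was the highest WT library in 17 (42.5%, against 27.9% of all tested genes) and KO4 the lowest KO-labelled library in 23 (57.5%, against 27.9%). When each member was expressed per 100 FPKM of macrophage markers, 3 of the 40 were higher in every KO-labelled than in every WT library: Ccl12, Ccl8 and Cxcr6. Over all tested genes that share was 0.889%. Cxcr6 passed the filter through the KO-labelled group, with a WT mean of 0.135 FPKM. Ccl12 went from 0.193 to 0.740 per 100 FPKM in WT to 1.22 to 3.44 in the KO-labelled libraries, Ccl8 from 6.42 to 7.82 to 9.53 to 10.8, and Cxcr6 from 0.0142 to 0.0894 to 0.122 to 0.173. Ccl6 (16.0 to 19.8 against 11.7 to 12.8) and Ccl24 were lower without overlap, against 9.31% of all tested genes. The other 35 overlapped. The median ratio of means over the 40 was 0.84. Of the 15 called members, 14 had a ratio of means above 1 and Ccl11 did not. These 15 were picked for high KO-labelled values, so that count carries no weight of its own. Whether macrophage content accounts for any member's difference was not tested.

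**Figure D5:**
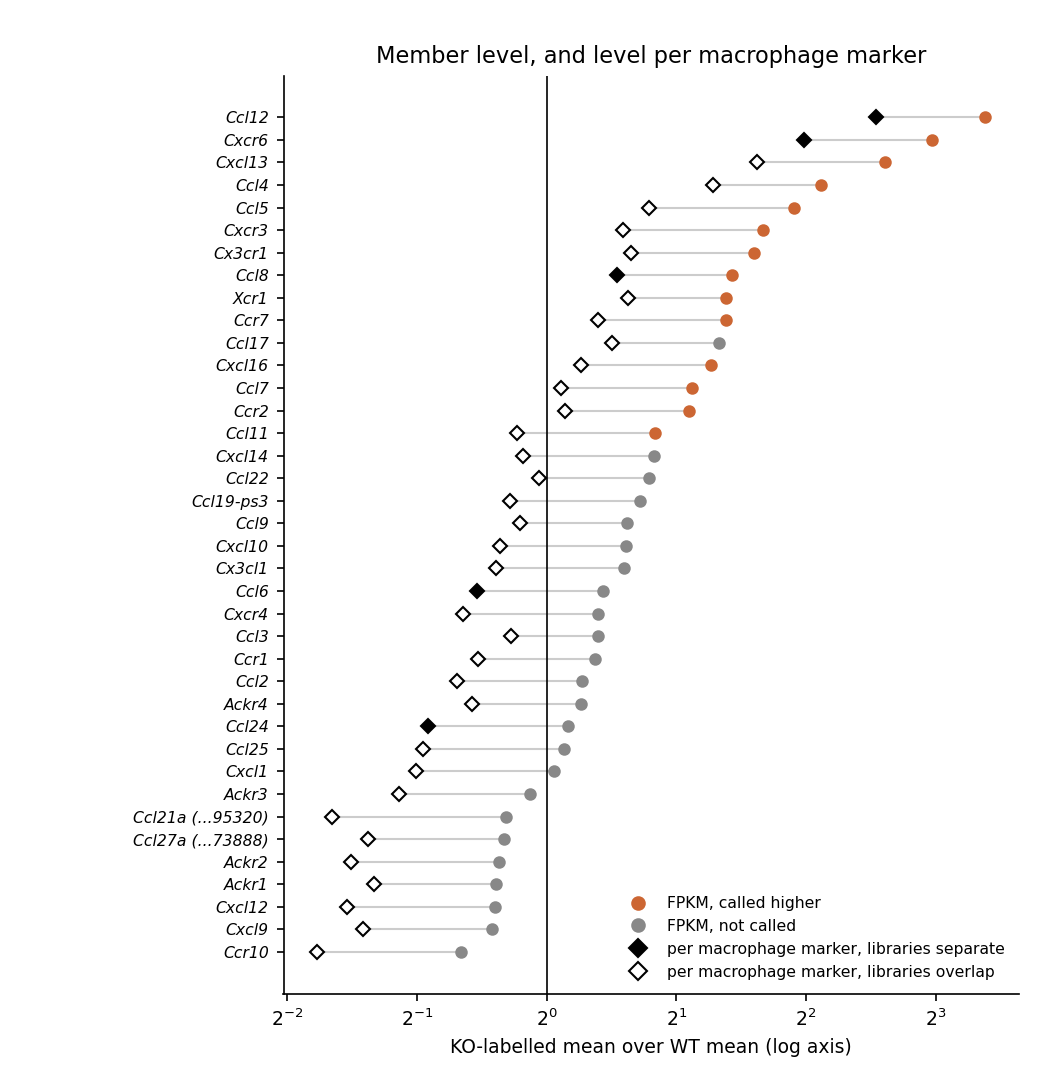
Ratio of the KO-labelled mean to the WT mean (log axis) for 38 tested members, from FPKM (circles, orange where called higher) and from FPKM per 100 FPKM of summed macrophage markers (diamonds, filled where the groups do not overlap). The circle and diamond of a member are joined; Ccl12, Cxcr6 and Ccl8 have filled diamonds to the right of 1 and Ccl6 and Ccl24 to the left, and the Ccl21c row with no WT reads is left out.

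Marker sums of the other leukocytes that carry these receptors were below the macrophage sum in every library. Of 7 T cell markers, 2 were tested and Lck was called higher (0.26 to 0.48 FPKM in WT, 0.59 to 1.41 FPKM in KO-labelled libraries). Lck passed the filter through the KO-labelled group, with a WT mean of 0.361 FPKM. The sum of the 7 was 3.85 to 10.7 FPKM in WT and 4.91 to 8.83 FPKM in KO-labelled libraries, and none was at 0. Its members went different ways. Trac, the most abundant, was at 6.22 ± 3.51 FPKM in WT and 2.70 ± 0.61 FPKM in KO-labelled fat and was not called (log2 fold change -0.93 ± 0.36, limma adjusted p = 0.0826). Of the 5 under the level tested, Cd3e, Cd3g, Cd4 and Cd8a were higher in every KO-labelled than in every WT library, and Cd3d overlapped. The gap was wide in Cd4 (0.05 to 0.14 against 0.71 to 1.04 FPKM) and narrow in Cd8a (0.01 to 0.31 against 0.37 to 0.94 FPKM). These values are near the floor, and no share over genes this low was taken. Of 5 dendritic cell markers, Clec9a was called higher, and the sums were 12.7 to 27.9 and 10.8 to 16.2 FPKM. The others were not called, with log2 fold changes of -0.73 in Cd209a, -0.20 in Zbtb46, -0.13 in Itgax and 0.47 in Flt3. Of 6 monocyte markers, 3 were called higher (Ly6c2, Plac8 and Spn), with sums of 19.5 to 26.6 and 24.6 to 25.7 FPKM. Ly6c2 passed the filter through the KO-labelled group, with a WT mean of 0.376 FPKM. Ace, most of the sum, averaged 17.5 FPKM in WT and 13.3 FPKM in KO-labelled fat and was not called (log2 fold change -0.37). Chil3 (-0.36) and Vcan (0.12) were not called either. NK cell markers summed to 1.34 to 2.47 and 1.77 to 3.01 FPKM, with 0 of 1 tested called. Mast cell sums did not overlap between groups, at 3.77 to 7.03 FPKM in WT and 25.9 to 31.1 FPKM in KO-labelled libraries, with 4 of 5 markers called higher. The part of these cells in the values of Cxcr3, Cxcr6, Ccr7, Xcr1, Ccr2 and Cx3cr1 was not tested.

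The other genes of the pathway were read from 5 lists, whose counts stand beside 11.7% of all tested genes called higher and 18.6% lower. Of 9 related chemoattractant genes, all tested, 3 rose and 0 fell: Cmklr1, the chemerin receptor (0.53 ± 0.11), Pf4, a CXC chemokine of platelets and macrophages (1.08 ± 0.29), and Mif (0.44 ± 0.13). The groups overlapped in Pf4, with WT4 at 55.6 FPKM and KO4 at 47.5 FPKM. Of 19 genes of receptor signalling and desensitisation, 4 rose and 0 fell, among them Arrb2, the beta-arrestin that ends receptor signalling (0.77 ± 0.19), and Prex1, a Rac activator (0.90 ± 0.27). Of 18 genes of the signals that induce chemokines, inhibitors of those signals included, 15 were tested and 6 rose with 0 fallen. Nfkbia (0.60 ± 0.14) and Tnfaip3, both among the 6, are such inhibitors. Irf7 and Stat2 of the interferon pathway rose by 2.41 ± 0.19 and 0.77 ± 0.12, and the NF-kB inhibitor gene Tnfaip3 by 1.0 ± 0.16. Irf1, an interferon-induced transcription factor, had a log2 fold change of -0.01 ± 0.10, and Tnf -0.02 ± 0.25. Il1b, Il6 and Ifng were under the level tested.

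Of 15 genes of leukocyte adhesion, 13 were tested, with 3 higher and 3 lower, where 11.7% and 18.6% of all tested genes were. Vcam1, which holds monocytes and T cells on endothelium, rose by 1.26 ± 0.18, while the endothelial junction genes Jam2 and Esam fell by 0.41 and 0.67 on the log2 scale. Of 12 genes that trim or present chemokines, 10 were tested, with 1 higher and 1 lower. The proteoglycan gene Sdc4 rose by 1.01 ± 0.18, the heparan sulfate enzyme gene Ndst1 fell by 0.22, and Dpp4, the protease that trims many chemokines, was at 4.07 and 3.67 FPKM and not called. All these calls are by limma, adjusted over the 14400 genes.

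The 21 members under a mean of 0.5 FPKM were Ccl1, Ccl19, Ccl26, Ccl27b, Ccl28, Ccl21a (ENSMUSG00000094686), Ccl21c (ENSMUSG00000096271), Ccl27a (ENSMUSG00000095247), Cxcl2, Cxcl5, Cxcl11, Cxcl17, Xcl1, Ccr1l1, Ccr3, Ccr4, Ccr6, Ccr8, Ccr9, Cxcr2 and Cxcr5. Of these, 15 had no read in at least 1 library. Xcl1, the ligand of Xcr1 from NK and CD8 T cells, read 0.15, 0.0798, 0.334 and 0.389 FPKM in WT and 0.919, 0.234, 0.632 and 0.463 FPKM in KO-labelled libraries, from 1 to 14 reads. Ccr1l1 read 0 to 0.140 FPKM in WT and 0.0693 to 0.525 FPKM in KO-labelled libraries. With no filter on low values, limma called 0 of the 21, and the smallest adjusted p was 0.0786, for Ccl1. The pseudogene Ccl19-ps3 reached the level tested with 88 reads in all and was not called (log2 fold change 0.55 ± 0.48, limma adjusted p = 0.421).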

How the data were processed

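Poly(A) RNA libraries of mouse epididymal fat (8 in all, 4 WT and 4 KO-labelled) were analysed. The authors deposited 1 table of FPKM values. HISAT2 2.0.5, featureCounts and mm10 are named per the submitters' processing notes, while annotation release and strand setting are not given in the sources used here. Coordinates and exon lengths are from GENCODE M21 (99.9% of IDs matched), and promoters from RefSeq (GRCm38.p6). The test was limma 3.58.1 in R 4.3.3 (trend and robust moderation, two-sided, 4 against 4, no covariate) on log2(FPKM + 0.5). P-values were adjusted by Benjamini-Hochberg over all 14400 genes whose mean reached 0.5 FPKM, and calls made under 0.05. Fold changes on this scale understate low genes. Errors are SDs over libraries or moderated standard errors.

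Dividing by steps of the low values gave whole reads (within 0.02) for 97.9% of values between 0.5 and 200 reads, and these served the voom alternative and the depths. Named with values per library are all called members and the uncalled ones with a mean of at least 5 FPKM, and of each pathway list up to 3 genes of smallest adjusted p. Some results, counted in the totals, are not reported here. Other members and list genes named were chosen after their values were seen. Members and lists were chosen with earlier results of these data known. Alternatives were other pseudocounts, filters, scalings, variance models, a replicate block and libraries left out. The fit was tested on simulated data. Python 3.11.15 and matplotlib 3.10.9 made tables and plots.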

Additional observations from a re-analysis of the deposited data

Results flagged for a closer look

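Within groups of 4, a library was marked where its gap to the nearest of the others was too large a part of the group's range by Dixon's test at the 95% level. Of 46 groups checked, 5 were marked, and chance marks about 1 in 20 groups, or 2.3 of 46. WT4 was far above WT1 to WT3 in Ccl8 (51.7 FPKM), Ccl6 (107 FPKM) and Ccl9 (70.8 FPKM). KO4 was far below KO1 to KO3 in Ccl9 (37.3 FPKM). In Ccl12, KO1, at 11.4 FPKM, was below the other KO-labelled libraries (13.6 to 13.8 FPKM). The first 4 of these involve the libraries whose macrophage marker sums also stood apart, 667 FPKM in WT4 and 402 FPKM in KO4, and the part of those markers was not tested.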

How the results depend on the processing

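Of 459 values of 22 named members under 21 other settings, 424 kept direction and side of the threshold, 28 lost a call, 4 gained one and 3 turned sign. Ccl11, Ccl12, Ccl5, Ccl7, Ccr7, Cx3cr1, Cxcr3 and Cxcr6 stayed called under each setting that tested them, and no called member turned sign. Ackr3 turned sign with each library brought to a sum of 1000000 (0.14), with reads in listed genes as the base (0.12) and with quantile normalization (0.040). Members called higher numbered 8 without WT1 and WT2, and 10 to 19 with 1 library left out (0 lower). With array weights 20 were higher and 1 lower (Cxcl9), and scaled to a sum of 1000000, 20 and 0.

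Over all genes, the sum of 1000000 gave 4226 higher and 1190 lower, and the base of listed reads 4194 and 1266. These scalings put the median gene at 0.24 and 0.19, against -0.02. Cul3 was then called higher (0.37 and 0.33). Fits leaving out 1 library called 1089 to 1937 genes higher and 1858 to 2803 lower, and without WT1 and WT2, 722 and 1036. Same-numbered libraries did not deviate together (correlations -0.06, -0.131, 0.169 and -0.317). With a replicate block, 1113 genes and 11 members were higher, 1 member was lower (Cxcl12), and Ccl8, Ccr2 and Xcr1 were among those not called. The causes were not tested. Ccl4 and Cxcr6 rest on few reads, at most 39 and 71 in a library.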
